A study of Homo sapiens with 8 samples.

Results

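The sites described here are stretches of messenger RNA that were listed as N6-methyladenosine (m6A) peaks in U2OS cells with either hairpin and in no list of 143B cells. Peaks of the 4 deposited lists were joined to a site when their spliced blocks overlapped by 1 bp or more on the same strand. The members were chosen by the presence of peaks in the lists: a site was kept when it held peaks of U2OS NC and of U2OS shMETTL14 and none of either 143B list. The rule kept 810 of 18714 sites, or 4.33%, with 4304 peaks on 699 genes. They are called U2OS-restricted below, a word about the peak lists and not about RNA or methylation levels.

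m6A is written on messenger RNA by a complex of METTL3, which carries the catalytic site, and METTL14, which binds RNA and holds the complex together. FTO and ALKBH5 remove the mark, and proteins with a YTH domain bind it. In most human cells the mark is known to be dense near stop codons and in long internal exons, and it influences splicing, translation and decay. A site can be found only in an RNA that the cell makes, so lists from lines with different transcriptomes hold different sites.

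U2OS and 143B are established human osteosarcoma lines. 143B was derived from the HOS line, and U2OS keeps its telomeres by the alternative, recombination-based pathway. Cells of each line were infected with a lentiviral short hairpin, either a control (labelled shNC, here NC) or one against METTL14 (shMETTL14). RNA enriched with an anti-m6A antibody was sequenced beside input RNA. The series holds 8 libraries, 1 of each kind per line and hairpin, and 1 peak list for each of the 4 enriched libraries. With 1 list per group nothing below has a replicate check, and no test was made between lines or hairpins.

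A peak list does not give RNA levels. Less RNA, less methylation of the same RNA and less sequencing therefore cannot be told apart wherever a peak is missing from a list. METTL14 itself had 5 peaks in U2OS NC, 2 in U2OS shMETTL14, 1 in 143B NC and 4 in 143B shMETTL14, which do not check the knockdown, and it had no U2OS-restricted site. Of the bone markers, RUNX2, the master factor of osteoblasts, had a site in all 4 lists, as had the matrix protein gene SPARC and the homeobox gene MSX2. SP7, ALPL, COL1A2, SPP1, IBSP, BGLAP and DLX5 had no peak in any list. None of 12 markers of blood, immune and endothelial cells had a peak in any list.

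Of the 7490 sites in both U2OS lists, 810 were U2OS-restricted, or 10.8% (95% exact interval 10.1 to 11.5). All intervals here are Clopper-Pearson intervals that cover counting error only and treat sites as independent. The mirror set, sites in both 143B lists and in neither U2OS list, held 1359 of 8359 sites, or 16.3% (15.5 to 17.1). Sites in all 4 lists numbered 5636. A further 1716 sites were in U2OS NC alone and 1129 in U2OS shMETTL14 alone. Among genes with a site in both U2OS lists, 699 of 5005 had a restricted one, or 14.0%. Of these genes 613 had 1 such site, 71 had 2 and 15 had 3 or more.

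**Figure D1:**
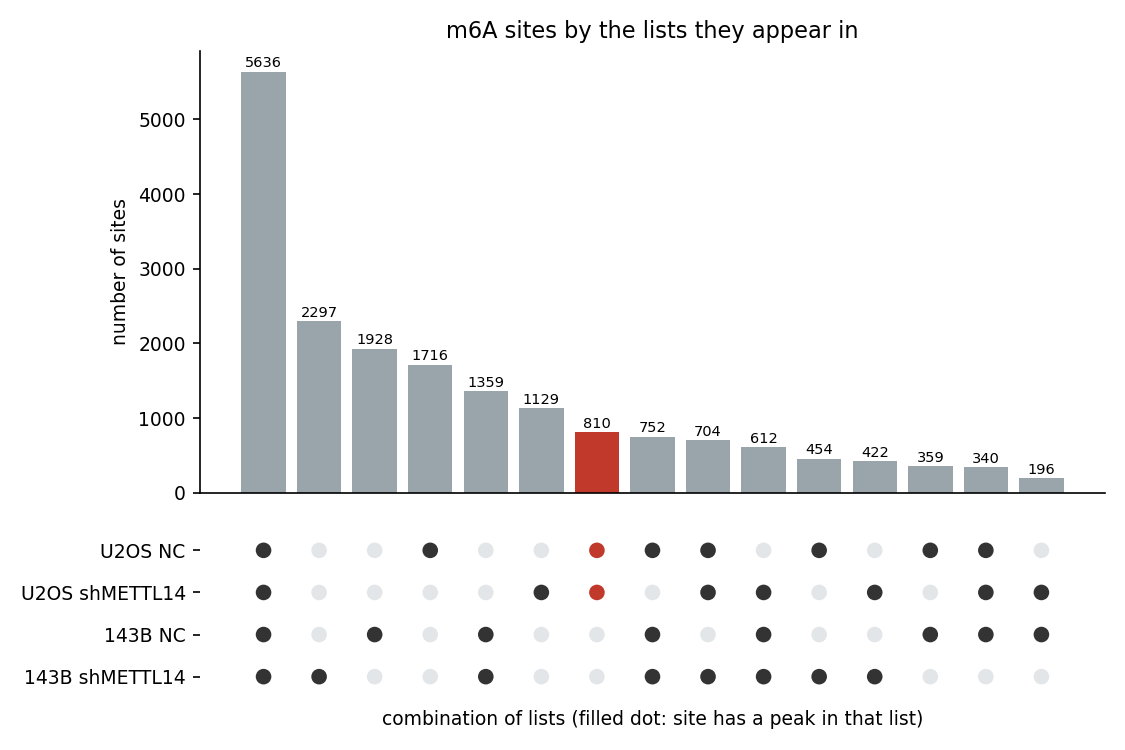
The bars give the number of sites for each combination of peak lists, counted from 0, with the lists in which a site has a peak marked below each bar. The U2OS-restricted bar stands at 810 sites and the mirror bar for 143B at 1359, beside 5636 sites in all 4 lists.

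The restricted sites were of 2 kinds by their genes. On genes with no peak in either 143B list lay 424 of the 810, or 52.3% (48.8 to 55.8), on 362 genes. The other 386 lay on genes that had a 143B peak elsewhere on the gene. Over all sites in both U2OS lists 5.66% were on genes with no 143B peak, and every one of those is restricted by construction. In the mirror set 645 of 1359 sites were on genes with no U2OS peak, or 47.5%. Of all 1062 genes with a U2OS peak and no 143B peak, 362 had a restricted site.

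The restricted sites of lowest p, by mean rank over the U2OS lists, were on TENM2, IGFBP5, ZSCAN31, NUPR1 and SEMA3C, and none of these genes had a 143B peak. A site's value in a list is the p-value and the fold enrichment of antibody over input RNA that the authors gave its lowest-p peak there. Both are read only within their own list, since the depth of the lists is unknown. TENM2 encodes a teneurin, a transmembrane adhesion protein of synapses. Its stop-codon site (hg19 chromosome 5, 167689516 to 167690713, plus strand) had a p of 1e-100 with NC and 1.26e-92 with shMETTL14, at folds of 7.85 and 6.79. That put it in the first 1.02% of U2OS NC sites by p and the first 1.30% of shMETTL14 sites. TENM2 had 31 peaks with NC and 27 with shMETTL14, and 4 more restricted sites in its coding sequence and 3' UTR.

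IGFBP5 binds insulin-like growth factors and is abundant in bone. Its site across the stop codon (chromosome 2, 217540921 to 217541578, minus strand) had a p of 1e-105 with NC and 6.31e-84 with shMETTL14, at folds of 4.42 and 5.34. The peak covered the same 658 bases with either hairpin. Its other restricted site, in the 3' UTR at 217538770 to 217539905, had a p of 6.31e-87 with NC and 1.58e-48 with shMETTL14. SEMA3C, a secreted semaphorin that guides axons and migrating cells, had the lowest p of any restricted site in U2OS NC, 1e-108, and 3.98e-35 with shMETTL14. Its folds were 5.84 and 5.65, across the stop codon at chromosome 7, 80374037 to 80378315. TGFB2, a ligand of the TGF-beta receptors, had its leading site across the stop codon at chromosome 1, 218614613 to 218615480. The p was 5.01e-35 with NC and 7.94e-36 with shMETTL14, and the folds were 4.30 and 3.36. TGFB2 had 4 peaks in each U2OS list and none in 143B.

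The other 6 of the 10 leading genes without a 143B peak follow. ZSCAN31, a zinc finger transcription factor with a SCAN domain, was listed across its stop codon at p of 5.01e-77 and 1.00e-74 in the NC and shMETTL14 lists. NUPR1, a small stress-induced nuclear protein, had a site that spanned its whole coding sequence (chromosome 16, 28548665 to 28550377) at 2.00e-66 and 6.31e-63. PER3, a component of the circadian clock, had a coding site at 1.00e-44 and 5.01e-22. NTM, a neural adhesion molecule held in the membrane by a lipid anchor, had a site at the 3' end of its message at 3.98e-32 and 1.58e-29. IL18, an inflammatory cytokine activated by the inflammasome, had a stop-codon site at 3.98e-25 and 1.26e-33. RP11-553A10.1, listed under its clone name, had a start-codon site at 5.01e-43 and 3.16e-39. By p, all 10 of these leading sites lay within the first 11.3% of the sites of either list.

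**Figure D2:**
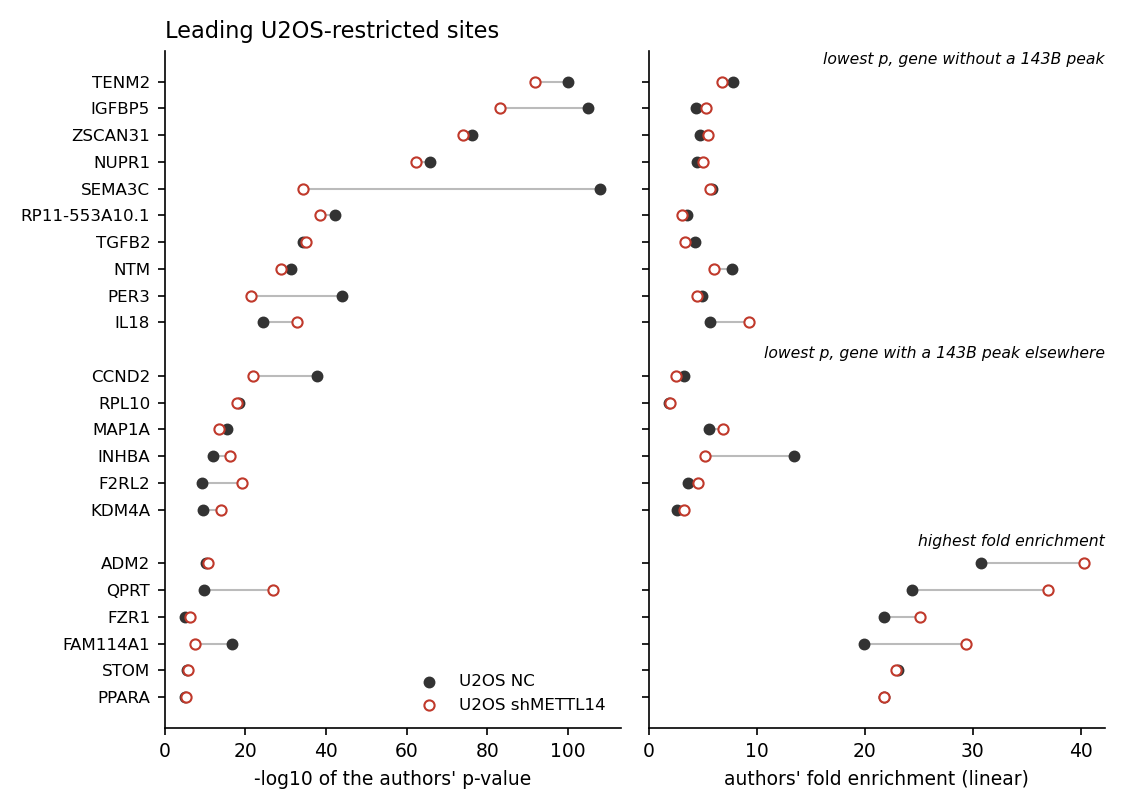
Points give the authors' p (as -log10) and fold enrichment in U2OS NC and in U2OS shMETTL14 for the leading U2OS-restricted sites. The sites are those leading by p, on genes without and with a 143B peak, and those leading by fold. Both lists are drawn on the same axis, but values are to be read only within a list. By p, TENM2 and IGFBP5 stand far to the right in both lists, and CCND2 leads the genes that have a 143B peak elsewhere.

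On genes with a 143B peak elsewhere, the leading sites were weaker. CCND2 encodes cyclin D2, which drives entry into the cell cycle. Its 3' UTR site (chromosome 12, 4409507 to 4409837) had a p of 1.58e-38 with NC and 1.00e-22 with shMETTL14, and folds of 3.30 and 2.55, over the same 331 bases. The nearest 143B peak, on the same gene, lay 2280 bp away. CCND2 had 5 peaks in each U2OS list, 2 in 143B NC and 1 in 143B shMETTL14, and 1 of its sites was in all 4 lists.

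MAP1A, a microtubule-associated protein of neurons, had 5 restricted sites among 24 NC and 21 shMETTL14 peaks, against 3 peaks in each 143B list. Its strongest (chromosome 15, 43817781 to 43818922, coding) was listed at 3.16e-16 and 3.98e-14. INHBA, the subunit that makes activin A, had a start-codon site at 1.00e-12 and 7.94e-17, with 7 peaks in each U2OS list and 4 in each 143B list. F2RL2, a protease-activated receptor, had a 3' UTR site at 5.25e-10 and 6.31e-20, 1100 bp from a 143B peak on the same gene. KDM4A, a histone lysine demethylase, had a coding site at 3.31e-10 and 1.00e-14.

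RPL10, a protein of the large ribosomal subunit, had its restricted site and its 143B peaks listed on different contigs. Its restricted site lay on chromosome X (153629112 to 153629343), and its 143B peaks were listed on an alternate scaffold. U2OS NC also had a site there that was shared with 143B. LDOC1 and SURF2 were the other members whose gene had its 143B peaks on a different contig, 3 sites in all. SURF2 had 1 site in all 4 lists on that contig, so its U2OS peaks were listed on both.

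Ranked by fold enrichment, the first 6 sites all lay in 3' UTRs. ADM2, a peptide hormone of the adrenomedullin family, had a fold of 30.8 with NC and 40.3 with shMETTL14 (chromosome 22, 50923341 to 50923939), at p of 6.31e-11 and 2.51e-11. QPRT, an enzyme of NAD synthesis, had folds of 24.4 and 37.0 from 1 peak in each list, with none in 143B. FZR1, an activator of the anaphase-promoting complex, had folds of 21.8 and 25.1, and FAM114A1 19.9 and 29.4. STOM, a membrane protein of the stomatin family, had 23.1 and 22.9, and PPARA, a nuclear receptor of lipid metabolism, 21.8 in both. A high fold did not always come with a low p: FZR1, STOM and PPARA lay at percentiles 43.2 to 51.5 of their lists by p, counted from the lowest.

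Most restricted sites were weak, and the share that was restricted fell with strength. The median p of the 810 was 3.09e-05 with NC and 5.89e-05 with shMETTL14. Over all sites of each list it was 5.37e-06 and 3.89e-06, and over sites in all 4 lists 4.84e-10 and 1.35e-09. By deciles of p in U2OS NC, 2.51% of the sites in both U2OS lists were restricted in the decile with the lowest p and 31.1% in the last. By shMETTL14 p the same shares ran from 1.83% to 24.5%, with 25.6% in the last decile but 1. Fold enrichment separated the sets less: the restricted sites had medians of 3.61 and 3.99, against 3.98 and 3.95 over all sites of the lists.

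**Figure D3:**
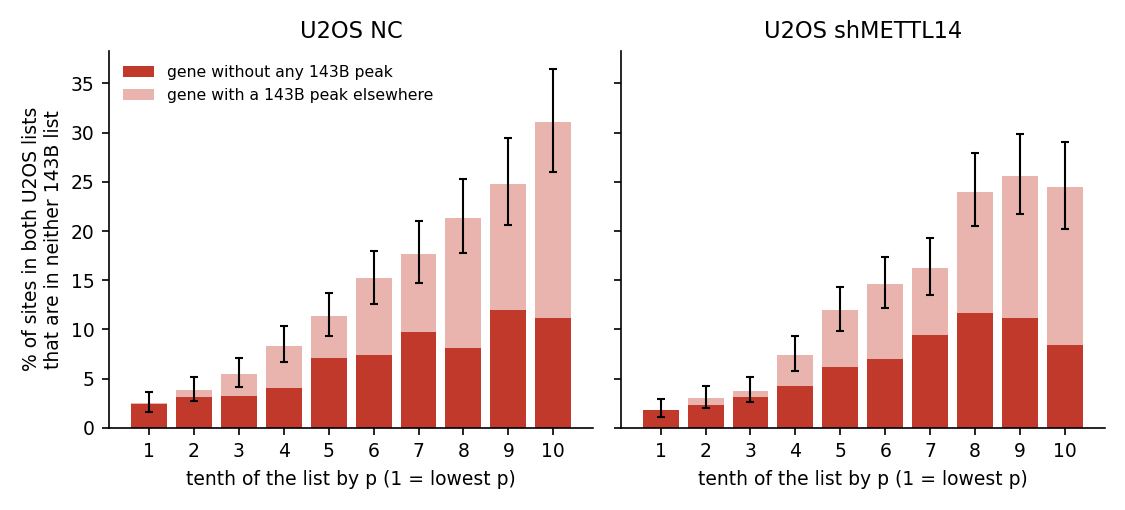
Stacked bars give the percent of sites in both U2OS lists that are restricted, by decile of the authors' p from lowest to highest. U2OS NC and U2OS shMETTL14 values are shown separately. The lower part of each bar counts restricted sites on genes without a peak in the other line. The upper part counts those on genes with one, and error bars give exact intervals of the total. The share is 2.51% in the lowest decile and 31.1% in the highest by the NC list.

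The few strong ones were nearly all on genes that 143B did not list. With a p at or below 1e-10 in both U2OS lists, 50 of 2246 sites were restricted, or 2.23% (1.66 to 2.92). Of these 50, 45 were on genes without a 143B peak (90%, 78.2 to 96.7), against 379 of the other 760 members (49.9%). In the decile of lowest p with NC, 26 of 27 restricted sites were on such genes, and with shMETTL14 all 18 were. Those 26 were 2.42% of the sites in both U2OS lists in that NC decile. In the last NC decile restricted sites on such genes were 11.2%. Sites on genes without a 143B peak had a median p of 1.14e-05 with NC and 2.79e-05 with shMETTL14, and median folds of 4.17 and 4.63. Those on genes with one had medians of 7.94e-05 and 0.000114 for p, and of 3.10 and 3.17 for fold.

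The rule makes the NC and shMETTL14 peaks of each restricted site overlap, but not by how much. Shared bases made up a median of 55.3% of the bases covered with either hairpin, against 74.1% for sites in all 4 lists and 57.3% for the mirror set in 143B. At least 50% was shared at 59.9%, 79.1% and 61.2% of these sites, in the same order. The lowest-p peaks of both hairpins were placed in the same part of the transcript at 726 sites, or 89.6%. The listed stretch was wider with NC at 415 sites, wider with shMETTL14 at 325 and equal at 70. Across the 810 sites, ranks by p in the 2 lists had a Spearman rho of 0.524, against 0.837 across sites in all 4 lists. For fold enrichment rho was 0.754 and 0.716. These correlations run across sites of the same libraries and are descriptions.

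MN1, a transcriptional coregulator, shows how thin the overlap can be. Its restricted site had a p of 5.01e-18 with NC and 0.00170 with shMETTL14, and shared 31 bases, or 8.59% of the bases covered. MN1 had 6 peaks in U2OS NC, 1 in U2OS shMETTL14 and 1 in 143B NC.

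By part of the transcript, the coding sequence and the 3' UTR held most of the restricted sites. In U2OS NC 98 of the 810 were placed across the stop codon, or 12.1% (9.93 to 14.5), against 23% (21.9 to 24.1) of sites in all 4 lists and 12% of 143B-restricted sites. The coding sequence held 45.3%, against 44.6% and 36.6%, and the 3' UTR 32.5%, against 24.5% and 42.5%. The 5' UTR held 4.94%, against 2.36% and 4.78%. The share of restricted sites across the stop codon depended on which peaks were used. It was 20.5% with the 50% of each list of lowest p and 16% with the 50% of highest fold, settings that also drop 143B peaks. It was 20.1% with U2OS peaks at or below their list's median p and all 143B peaks. Among the 50 strong members it was 30%, or 15 sites. In the 50% of U2OS NC sites with lower p, 4.70% of stop-codon sites and 4.92% of coding sites were restricted, against 12.7% of 5' UTR sites and 8.33% of 3' UTR sites. In the 50% with higher p, 17.4% of stop-codon, 21.8% of coding, 23.9% of 5' UTR and 18.8% of 3' UTR sites were.

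**Figure D4:**
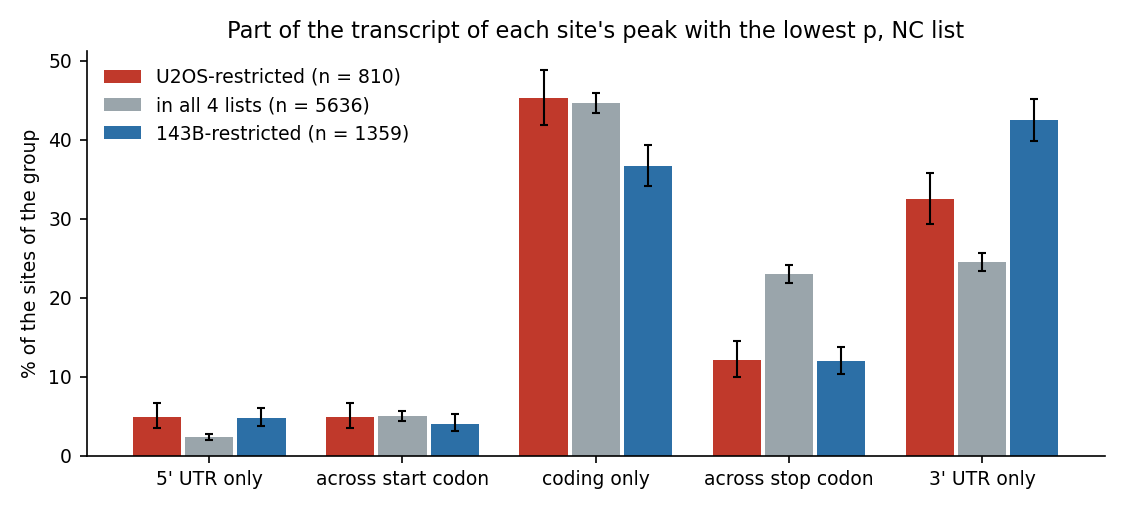
Bars with 95% exact intervals give the percent of sites in each part of the transcript, for U2OS-restricted sites, sites in all 4 lists and 143B-restricted sites. The stop codon holds 12.1% of U2OS-restricted sites and 23% of sites in all 4 lists.

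The rule's limit is 1 shared base, and sites near it were few. The nearest 143B peak on the same strand was a median of 40400 bp away over the 808 sites with such a peak on their contig. Over the 385 of these on genes with a 143B peak, the nearest lay a median of 1580 bp away. Over all 810 sites it lay within 100 bp of 43 (5.31%), 42 of them on the same gene, and within 1000 bp of 161 (19.9%). At 6 sites the span of a 143B peak overlapped that of the site while their spliced blocks did not: MAP4, DCAF16, KIAA0907, MIA3, SENP5 and ZNF10. The nearest beyond these were ANK2, a membrane-skeleton adaptor, with a 143B peak 5 bp away, the sialyltransferase gene ST3GAL1 at 8 bp and the sialidase gene NEU3 at 14 bp. Just outside were CSF1, ST8SIA1 and CLPX, whose U2OS and 143B peaks shared 1 base. Of the 6680 sites in both U2OS lists with a 143B peak, 46 shared under 50 bases with it (0.689%).

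Several restricted sites could lie on 1 gene. DST, which encodes the cytoskeletal linker dystonin, had 6, the most of any gene, but it was listed with 162 and 144 peaks in U2OS and 73 and 87 in 143B. 1 of its 6 sites lay 82 bp from a 143B peak and another joined NC and shMETTL14 peaks by 1 base. COL5A1, a collagen that regulates fibril width, had 4 restricted sites and 1 peak in 143B NC. ALPK2, an alpha-kinase, and MAP2, a dendritic microtubule protein, had 4 each and no 143B peak. The 4 MAP2 sites lay in 1 stretch of chromosome 2 (210558397 to 210561465), with p from 7.59e-08 to 0.000479 in U2OS NC.

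Gene lists are described beside the 10.8% over all sites, with no set test. Of the 25 lists with a site in both U2OS lists, 19 lay above it. Some did so only just, such as the interferon list at 11.1% and the Wnt list at 11.5%. Some genes, such as COL1A1, are in more than 1 list. Genes of the matrix and of adhesion were among those with high shares. Integrins and extracellular matrix had 21 restricted of 75 sites (28.0%, 18.2 to 39.6) on 15 genes, and 11 of 57 in the mirror count for 143B. FN1, fibronectin, had 13 peaks in U2OS NC and 27 in shMETTL14 and none in 143B. Its 1 restricted site, in the coding sequence, had a p of 6.17e-09 with NC and 1.00e-11 with shMETTL14, at the low folds of 1.55 and 2.16. ITGB8, an integrin that activates latent TGF-beta, had a stop-codon site at 1.58e-13 and 8.32e-06.

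Bone matrix genes gave 6 restricted of 19 sites (31.6%, 12.6 to 56.6), beside 1 of 8 in the mirror count. The share rests largely on COL5A1, which had 4 of the 6, while COL1A1 and COL12A1 had 1 each. By genes it was 3 of 11, and each of the 3 had a 143B peak elsewhere. COL1A1, the main collagen of bone, had a 3' UTR site (chromosome 17, 48261607 to 48261876) at 2.00e-13 with NC and 7.94e-06 with shMETTL14, 746 bp from its 143B peak. Cartilage genes gave 3 of 4 sites, on 2 genes. The other site, on SOX9, was in all 4 lists, at 1.00e-103 with U2OS NC and 3.16e-60 with U2OS shMETTL14. HAPLN1, the protein that links aggrecan to hyaluronan, had a coding site at 7.94e-46 and 1.26e-13, and COL11A1, a fibrillar collagen of cartilage, one at 2.75e-09 and 5.01e-06. Of 11 neural markers, 3 had a peak in any list and 2 had sites in both U2OS lists. These were MAP2, with 4 sites, and NES, an intermediate filament of neural progenitors, with 1. All 5 sites were restricted, and no neural marker had a site in both 143B lists. NES was listed at 2.51e-12 and 7.08e-05.

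Ion channel genes had the highest share of any list with 10 or more sites, 12 of 21 (57.1%, 34.0 to 78.2), and all 12 were on genes without a 143B peak. The mirror share in 143B was 36.8%. The 9 genes included the calcium channels CACNA1A and CACNA1H, the potassium channels KCNA1 and KCNQ3, the chloride transporter CLCN4, the delta glutamate receptor GRID1, and the mechanosensitive channel PIEZO2. CACNA1H, a low-voltage calcium channel, had a coding site at 1.15e-09 and 6.31e-06, with folds of 19.9 and 5.63. GRID1 was listed across its stop codon at 1.00e-05 and 2.00e-07, and PIEZO2 at 3.16e-07 and 6.31e-05. Cadherins and protocadherins had 5 of 15 (33.3%), on CDH12, CDH18, FAT4 and PCDH7, beside 4 of 11 in 143B. CDH12, a classical cadherin, had folds of 28.2 and 17.4 across its stop codon, and PCDH7, a protocadherin, had a coding site at 6.17e-05 with NC and 6.31e-11 with shMETTL14. Axon guidance genes had 5 of 21 (23.8%), on SEMA3C, SEMA3E, SEMA3F, EPHA5 and EPHB4, and 9 of 22 in 143B.

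Signalling lists had few restricted sites each. The TGF-beta and BMP list had 6 restricted of 38 sites (15.8%, 6.02 to 31.3), on the ligands TGFB2 and INHBA, the receptor BMPR2, and the inhibitors SMAD6 and SKIL. SKIL also had a site in all 4 lists, and its restricted 5' UTR site lay 59 bp from a 143B peak. Wnt genes had 3 of 26 (11.5%), on the extracellular regulator DKK3, the Dickkopf receptor KREMEN1 and the coreceptor LRP6, against 12 of 36 in 143B. Notch genes had 2 of 11: NOTCH3, a receptor, was listed at 5.01e-12 and 4.17e-07, and DTX1, a ubiquitin ligase of the pathway, at 3.24e-08 and 4.37e-09. The Hedgehog list had 1 of 7, on the transcription factor GLI1. Receptor tyrosine kinases and their ligands had 0 of 16 (upper bound 20.6%), and RAS, MAP kinases and their feedback genes 0 of 17 (upper bound 19.5%), while the latter had 11 of 28 in 143B (39.3%).

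HOX and homeobox genes, which set position in the embryo, had 1 restricted of 27 sites (3.70%, 0.0937 to 19), against 31 of 61 in the mirror count (50.8%, 37.7 to 63.9). That 1 site was on EN1, an engrailed homeobox gene, across its stop codon at 1.07e-05 and 1.91e-06. SOX, FOX and GATA factors had 5 of 42 (11.9%), on FOXJ3, FOXO6, FOXP4 and FOXS1. The p53 list had 6 of 28 (21.4%, 8.30 to 41.0), on BBC3, which promotes apoptosis, the antiproliferative genes BTG2 and ZMAT3, the ribonucleotide reductase subunit RRM2B, and TP53INP1. BTG2 was listed at 1.35e-06 and 7.94e-12, 387 bp from a 143B peak. Cyclins, CDKs and inhibitors had 4 of 34 (11.8%): 2 on CCND2, and 1 each on CDK16 and CDKN2B. CDKN2B encodes an inhibitor of the cyclin D kinases and had no 143B peak. Its stop-codon site (chromosome 9, 22005409 to 22006126) had a p of 3.98e-18 with NC and 7.59e-10 with shMETTL14, and it had 5 peaks with NC and 1 with shMETTL14.

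Genes of the m6A machinery had 3 restricted of 23 sites (13.0%), all weak and all on genes with 143B peaks. FTO, the demethylase, had a 3' UTR site (chromosome 16, 54147710 to 54147809) at 8.91e-05 with NC and 0.00105 with shMETTL14. The reader YTHDF3 was listed at 0.000132 and 9.12e-06, and HNRNPA2B1, an RNA-binding protein, at 0.00110 and 0.000115, only 29 bp from a 143B peak. Ribosomal protein genes had 2 of 38 (5.26%), RPL6 and the RPL10 site described above. Telomere and ATRX-DAXX genes had 0 of 7 and the epithelial list 0 of 1, and no muscle gene had a site in both U2OS lists. The interferon list had 1 of 9, on the antiviral gene IFIT1. Cancer-testis antigens had 2 of 6, and both genes had no 143B peak. MAGEA4 had 12 peaks in each U2OS list with p of 3.16e-12 and 1.00e-19 at its restricted site, and PAGE2B was listed over its whole coding sequence at 1.58e-24 and 2.00e-21. Solute carriers had 12 of 82 (14.6%), beside 6 of 73 in 143B. TMCO3, which the list takes in through its current RefSeq symbol, had the strongest of these by mean rank at 3.63e-10 and 1.91e-07, 20 bp from a 143B peak. SLC6A15, a transporter of branched-chain amino acids, had a start-codon site at 7.41e-05 and 6.17e-06 and no 143B peak nearer than 2530000 bp. The zinc transporter gene SLC39A10 had a 3' UTR site at 0.000204 and 3.24e-05, 178 bp from a 143B peak.

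**Figure D5:**
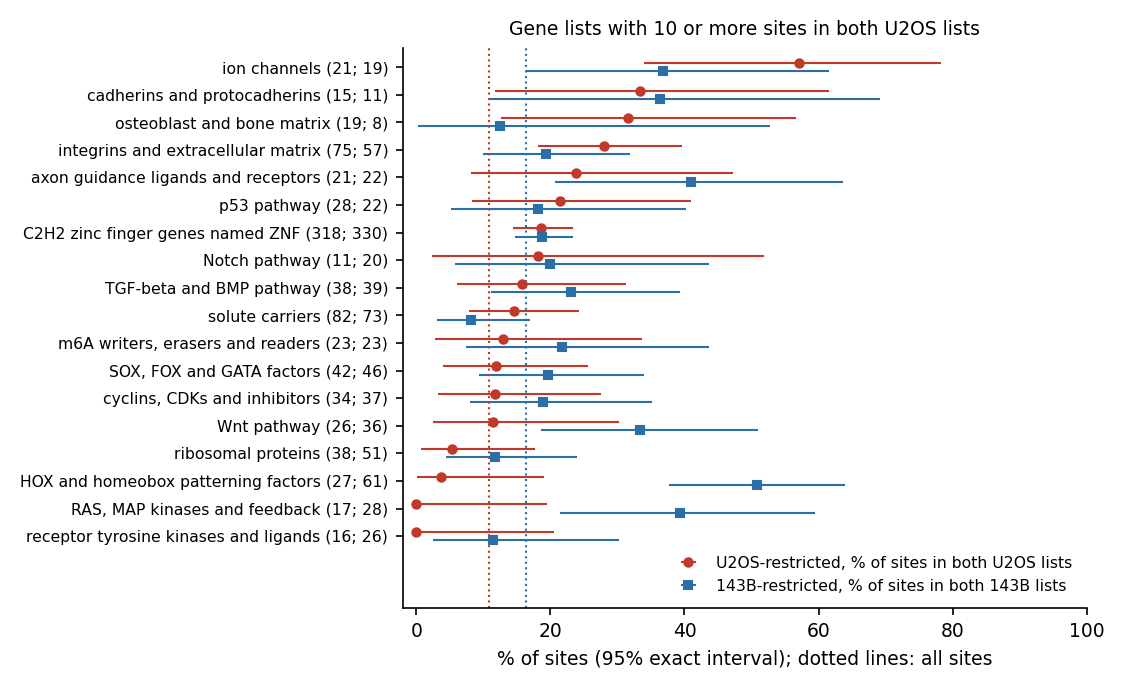
For each list with 10 or more sites in both U2OS lists, points with 95% exact intervals give the percent that is U2OS-restricted and, for the same genes, the percent of sites in both 143B lists that is 143B-restricted. Dotted lines mark 10.8% and 16.3% over all sites; the homeobox list stands at 3.70% in U2OS and 50.8% in 143B.

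Zinc finger genes named ZNF had the most restricted sites of any list, 59 of 318 (18.6%, 14.4 to 23.3) on 50 genes, beside 62 of 330 in 143B (18.8%). Most encode repressors with arrays of C2H2 fingers, and many lie in clusters on chromosome 19. There, 37 of 115 ZNF sites were restricted (32.2%, 23.8 to 41.5), against 22 of 202 ZNF sites on other chromosomes (10.9%, 6.95 to 16.0). The ZNF sites of chromosome 19 were also weaker, with a median U2OS NC p of 3.31e-05 over all 115, against 1.18e-06 for the other ZNF sites and 2.24e-08 for other genes elsewhere. The part of this in the higher share was not tested. Other genes of chromosome 19 gave 42 of 368 (11.4%), and other genes elsewhere 709 of 6805 (10.4%). The mirror share for chromosome 19 ZNF sites was 20 of 96 in 143B (20.8%). Sequence-alike genes, ZNF genes among them, may share reads, so the gene that carries such a site is uncertain. Counts of genes carry the same uncertainty. ZNF608, on chromosome 5, had the leading ZNF site by mean rank of p, at 1.00e-26 with NC and 2.00e-18 with shMETTL14, and another at 1.26e-32 and 3.16e-15, with 10 and 22 peaks in the U2OS lists and none in 143B. ZNF662 had a stop-codon site at 2.29e-06 and 1.00e-12, and ZNF467 a 5' UTR site at 5.01e-07 and 7.08e-06 with folds of 6.05 and 18.5.

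The densest stretch of the genome was the ZNF cluster between 44000001 and 45000000 on chromosome 19. It held 12 restricted of 31 sites in both U2OS lists, on 9 genes. Of the 12, 10 were on genes without a 143B peak, while ZNF45 and ZNF225 had 143B peaks. Besides the adhesion gene CADM4, the 9 genes were ZNF45, ZNF221, ZNF223, ZNF225, ZNF283, ZNF284, ZNF285 and ZNF404. Their p ran from 2.57e-06 to 0.000661 with NC and from 1.45e-06 to 0.00102 with shMETTL14, and 15 other sites in the same stretch were in all 4 lists. The next densest windows of 1 Mb held 7 sites, 6 of them on DST, and 6 sites each on chromosome 19 and around TENM2 on chromosome 5. Of all windows with a member, 393 held only 1.

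By chromosome the share of restricted sites was highest on X, 28 of 144 (19.4%, 13.3 to 26.9), and on 19, 79 of 483 (16.4%, 13.2 to 20.0). It was lowest on 13, with 7 of 126 (5.56%). In the mirror count X had 15.3% and 19 had 16.5%, beside 16.3% over all sites. The 28 X-linked sites lay on 27 genes, and 19 of them were on genes without a 143B peak.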

How the data were processed

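The members, gene lists and rules were chosen with earlier results of these data known. The submitters' processing notes name the tools HISAT2, Trimmomatic and FastQC 0.11.5 and the build hg19. Not given in the sources used here are the depth, the annotation, and the peak caller with its threshold. Each of 4 enriched libraries has 1 peak list, called on its own sample as far as the lists show. Per the file headers, each peak has spliced blocks, a strand, a gene, a p-value and a fold enrichment, a linear ratio; both values were deposited by the authors and used only within their own list. Counts are not part of the lists, and the precision that depth gives is unknown. Isoforms repeat a locus within a list, and joining to sites removes this repetition.

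Groups were taken from the sample titles. Overlapping peaks were joined over all 4 lists by connected overlap, and each site took the gene and values of its lowest-p peak. Positions are counted from 1. Python 3.11.15, numpy 2.4.6, pandas 2.3.3, scipy 1.17.1 and matplotlib 3.10.9 were used, and the joining was tested on simulated data. The text names, on chromosomes 1 to 22 and X, the 10 genes without a 143B peak and the 6 with one whose sites had the lowest mean rank of p, 1 site per gene. It adds the 6 best by fold, the 6 genes with most sites, up to 3 genes for each of 27 lists, the sites nearest the rule's limit without overlap of spans, and METTL14, METTL3 and MN1 where restricted. Other restricted genes of a list are named after their values were seen, as are the genes of the densest window, of overlapping spans and of different contigs, and the second IGFBP5 and ZNF608 sites. Alternatives changed the overlap, the strand and the peaks used. Of 8758 gene names, 8619 matched a current RefSeq symbol. Some genes of the lists are not reported here. Input libraries were not analysed here, and no sequence is printed because an hg19 genome was not used here.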

Additional observations from a re-analysis of the deposited data

How the results depend on the processing

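The number of restricted sites, their share of sites in both U2OS lists and their share on genes without a 143B peak were 810, 10.8% and 52.3%. Joining at 50% of the shorter peak or within 100 bp, using spans, ignoring strand, keeping 1 transcript per gene or chromosomes 1 to 22 and X, or asking for direct overlap gave 783 to 861 sites, 10.7 to 11.2% and 49.2 to 55.4%. Choosing other peaks moved the values more. With the 50% of each list of lowest p, 557 of 3927 sites were restricted, and the shares were 14.2% and 68.0%. With equal numbers of peaks per list 12.8% of sites were restricted. Both settings also drop 143B peaks, as does that of highest fold. A site can then count as restricted although the full 143B lists hold a peak there. With U2OS peaks at or below the median p of their list and all 143B peaks, 169 of 3927 sites, 4.30% and 71.6% were found. The 50% of highest fold gave 518 sites, 13.7% and 56.6%. The bound of 1e-10, chosen after the data were seen, gave 50 sites, 2.23% and 90%. Each of these settings tests fewer peaks by construction. Of the 96 named sites, 88 stayed restricted when peaks within 100 bp were joined and 42 with the 50% of lowest p. No paired analysis was possible because each line and hairpin has 1 list and the results come from no test. Leaving out a replicate was not possible for the same reason. Depth sets which weak peaks are listed, and it is unknown.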

Other observations

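Some genes had sites restricted to each line. Of the 699 genes, 28 (4.01%) also had a 143B-restricted site and 208 (29.8%) also had a site in all 4 lists. In 5 genes each list held 1 site, listed at different coordinates in the 2 lines; they were chosen after their values were seen. GALNT7, an enzyme of mucin-type glycosylation, was listed across its stop codon in U2OS (p of 1.38e-08 with NC and 7.08e-08 with shMETTL14). In 143B it was listed in its coding sequence (0.00132 and 3.80e-05). PRKD3, a protein kinase D, was listed in its coding sequence in U2OS (1.70e-06 and 2.14e-06) and near its start codon in 143B (0.000537 and 1.38e-08). LGMN, a lysosomal protease, had a coding site in U2OS (2.63e-05 and 0.000457) and a start-codon site in 143B (4.90e-05 and 7.41e-05). KIF5A, a kinesin of neurons, had a coding site in U2OS (0.000186 and 0.00214) and a 3' UTR site in 143B (0.000891 and 0.00126). The fifth, LDOC1, had a 3' UTR site listed on a scaffold in U2OS and on chromosome X in 143B, so a different place on its message is not shown. Isoforms with different ends were not examined.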
